A study of Homo sapiens with 3 samples.

Results

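The genes described here are 10 members of the Kruppel-like factor family, namely KLF2, KLF3, KLF4, KLF5, KLF6, KLF9, KLF10, KLF11, KLF12 and KLF13, out of 19208 genes measured on the arrays. They were taken from a list of symbols and matched to the gene annotation deposited with the comparison of control cells with cells treated for 24 h, in which each of the 10 genes had 1 transcript cluster. The cells were LNCaP, an androgen-responsive line from human prostate cancer. The title of the control array names no treatment. The other cells were given n-butylidenephthalide (BP), a compound of Angelica sinensis, at 70 µg/ml for 3 h or for 24 h. Total RNA of each condition was hybridized to 1 Affymetrix array, so 3 arrays were available in all. The series title names DMSO, but the label of the control array gives neither a solvent nor a harvest time, so BP and time in culture cannot be told apart. Because each condition had 1 array, no test across replicates was possible, there are no p-values, and precision is limited by the 3 arrays.

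Kruppel-like factors are transcription factors that share a conserved block of C2H2 zinc fingers at the carboxyl end and bind GC-rich and CACCC-type sequences in promoters. The rest of each protein differs and recruits either coactivators or corepressors. KLF2, KLF4, KLF5 and KLF6 can act as activators, KLF3 and KLF12 recruit the corepressor CtBP, and KLF9, KLF10, KLF11 and KLF13 recruit SIN3 complexes. In epithelia, KLF4 is known for cell cycle exit and differentiation, KLF5 for proliferation, and KLF6 has been studied as a candidate tumor suppressor in prostate.

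Promoter sequences are shown for 4 members with different patterns of values. KLF4 and KLF6 had raised values at 3 h, KLF11 had a small difference at 3 h, and KLF2 had the same value on all 3 arrays. Sequences are from RefSeq on GRCh38.p14, run from 250 bases before the annotated start of the gene to 50 bases after it, and are printed 5′ to 3′ on the strand of the gene. The window of KLF4 is chr9:107489720-107490019 (minus strand), that of KLF6 is chr10:3785160-3785459 (minus strand), that of KLF11 is chr2:10043579-10043878 (plus strand) and that of KLF2 is chr19:16324576-16324875 (plus strand). Capitals mark matches to GGGCGG, the GC box, on either strand.
KLF4: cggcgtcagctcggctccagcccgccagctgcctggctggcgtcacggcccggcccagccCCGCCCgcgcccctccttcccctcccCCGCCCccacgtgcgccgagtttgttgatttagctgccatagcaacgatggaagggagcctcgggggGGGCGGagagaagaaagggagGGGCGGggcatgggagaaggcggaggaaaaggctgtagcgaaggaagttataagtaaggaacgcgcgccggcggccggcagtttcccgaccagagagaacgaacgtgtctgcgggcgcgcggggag
KLF6: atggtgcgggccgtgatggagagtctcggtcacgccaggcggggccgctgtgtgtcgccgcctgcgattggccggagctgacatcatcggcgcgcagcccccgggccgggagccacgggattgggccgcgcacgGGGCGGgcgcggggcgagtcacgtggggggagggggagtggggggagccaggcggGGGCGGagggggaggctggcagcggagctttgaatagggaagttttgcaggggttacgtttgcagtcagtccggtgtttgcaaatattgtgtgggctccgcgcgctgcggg
KLF11: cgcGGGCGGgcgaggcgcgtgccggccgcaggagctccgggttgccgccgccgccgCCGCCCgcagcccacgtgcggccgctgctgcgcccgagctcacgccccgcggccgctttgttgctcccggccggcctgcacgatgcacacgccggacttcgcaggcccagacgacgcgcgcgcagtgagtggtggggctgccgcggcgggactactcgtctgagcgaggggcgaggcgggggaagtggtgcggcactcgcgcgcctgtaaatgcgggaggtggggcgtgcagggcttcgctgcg
KLF2: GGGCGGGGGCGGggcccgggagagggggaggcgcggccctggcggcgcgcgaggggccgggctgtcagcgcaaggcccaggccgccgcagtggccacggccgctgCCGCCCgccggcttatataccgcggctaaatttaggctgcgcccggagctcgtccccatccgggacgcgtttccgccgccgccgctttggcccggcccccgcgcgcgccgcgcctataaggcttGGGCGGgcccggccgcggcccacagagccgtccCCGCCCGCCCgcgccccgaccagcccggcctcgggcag

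Of the 10 genes, 8 had a promoter in the RefSeq table, while KLF3 and KLF10 are named only. The GC box GGGCGG was present in 5 of these 8 windows, against 45.0% of 35116 promoters of the same length. KLF2 had 6 matches, some of them overlapping or adjacent, KLF4 had 4, KLF13 had 3, and KLF6 and KLF11 had 2 each. CACCC, the other sequence that these proteins bind, was present in 2 of 8 windows, those of KLF5 and KLF13, against 59.9% of all promoters. In KLF13 the CACCC match shares 1 base with a GC box. The windows were also searched on both strands for TGACGTCA (cAMP response element), TGANTCA (AP-1 site), TGATGCAA (a C/EBP-ATF element) and the CArG box of serum response factor, and 0 of 8 held any of them. These are rare in general, present in 1.85%, 7.71%, 0.866% and 1.29% of all promoters. TATAAA was found in the KLF5 window alone among the 8, from -194 to -189 relative to the start, against 11.5% of all promoters. The median GC content was 69.8% over the 8 windows and 58.7% over all promoters. GC boxes were thus present both in KLF4 and KLF6, with raised values at 3 h, and in KLF2, with identical values. A match describes the letters and not the binding of a factor.

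**Figure D1:**
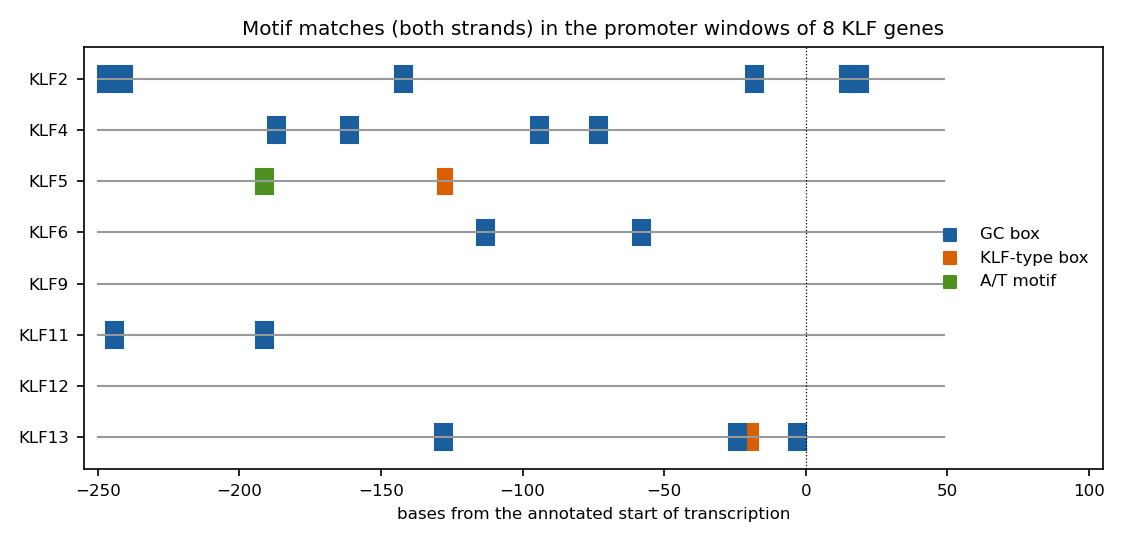
Position of motif matches on either strand in the promoter windows of 8 KLF genes, in bases from the annotated start (0). GC boxes (blue) lie in 5 windows, with 6 in KLF2 and 4 in KLF4, the KLF-type box CACCC (orange) in 2 and the A/T motif TATAAA (green) in 1, and those of KLF9 and KLF12 hold no match.

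The deposited values are on the log2 scale, and a difference of 1 is 2-fold. The 3 arrays had similar medians over 33297 transcript clusters, 5.48, 5.46 and 5.48 on the control, 3 h and 24 h arrays. Without the lowest and highest 2.5% of genes, the log2 difference of BP 3 h from control spanned -0.35 to 0.48, and that of BP 24 h spanned -0.86 to 0.81. In many genes the deposited value was the same to the last digit on several arrays. It was identical on all 3 arrays for 34.2% of genes and on exactly 2 arrays for 28.4%. What makes these values identical was not tested, so an identical value is given here as no difference in this table and not as an equal amount of RNA. The prostate identity of the cells was visible on each array. Of 8 markers of LNCaP reported here, all lay above the median gene in control cells (log2 values from 8.31 to 10.2, median gene 6.05). Of 10 markers of other prostate lines, stroma and blood 1 did, COL1A1 at 6.86. On both BP arrays all 8 LNCaP markers again lay above the median gene. Of the 10 other markers, 1 did at 3 h and 2 did at 24 h, VIM at 6.30 and COL1A1 at 7.04 (median gene 6.03). At 24 h, 6 of the 8 LNCaP markers were at least 2-fold lower, against 2.11% of all genes. KRT8 and KRT18 were above control at that time, by 0.94 and 0.11 on the log2 scale. The log2 of the summed level of the 8 markers went from 12.6 in control cells and 12.6 at 3 h to 12.0. The part of this shift in the values of the KLF genes was not tested. In bulk RNA, fewer cells that express a gene and less RNA per cell cannot be told apart.

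KLF4 was the member with the highest increase at both times. Its log2 value (transcript cluster 8163002, cytoband 9q31) was 5.87 on the control array, 7.47 on the 3 h array and 7.20 on the 24 h array. Both BP arrays thus lay well above the control array. KLF4 was higher than in control cells by 1.60 at 3 h, which is 3.03-fold, and by 1.33 at 24 h, which is 2.51-fold. It was among the 21 genes with the largest increases at 3 h, and 0.802% of genes had an increase at least as large at 24 h. Its difference between the later and the earlier BP array was -0.27.

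KLF6 and KLF3 were higher at 3 h but did not reach 2-fold. KLF6, an activator described upstream of the p21 gene, had log2 values of 6.02, 6.93 and 6.28 on the control, 3 h and 24 h arrays. The 3 h value was the highest, at 1.88-fold of control, and 0.479% of genes had an increase at least as large. At 24 h KLF6 was 1.19-fold of control, which lies inside the range of most genes. KLF3, the CtBP-binding repressor first described in erythroid cells, had values of 6.94, 7.63 and 7.21 in the same order. It was 1.62-fold of control at 3 h, where 0.958% of genes had an increase at least as large, and 1.21-fold at 24 h. The log2 difference of the 24 h array from the 3 h array was -0.65 for KLF6 and -0.42 for KLF3.

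Past the 2-fold threshold, 1 of the 10 members was above control at 3 h, against 0.344% of all genes, and 0 were below it, against 0.0469%. At 24 h the counts were 1 higher, against 1.53% of all genes, and 0 lower, against 2.11%. In both cases the gene was KLF4. Between 3 h and 24 h, 0 members were at least 2-fold higher, against 0.807% of genes, and 0 at least 2-fold lower, against 2.4%. KLF4, KLF6 and KLF3 were at least 0.5 higher on the log2 scale at 3 h, as were 2.34% of all genes, a level chosen after the values were seen. At 24 h, 1 member and 5.53% of genes were. The median difference of the 10 members was 0.11 at 3 h and 0.00 at 24 h, and that of all genes was 0.00 at both times. Both BP comparisons share the control array.

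**Figure D2:**
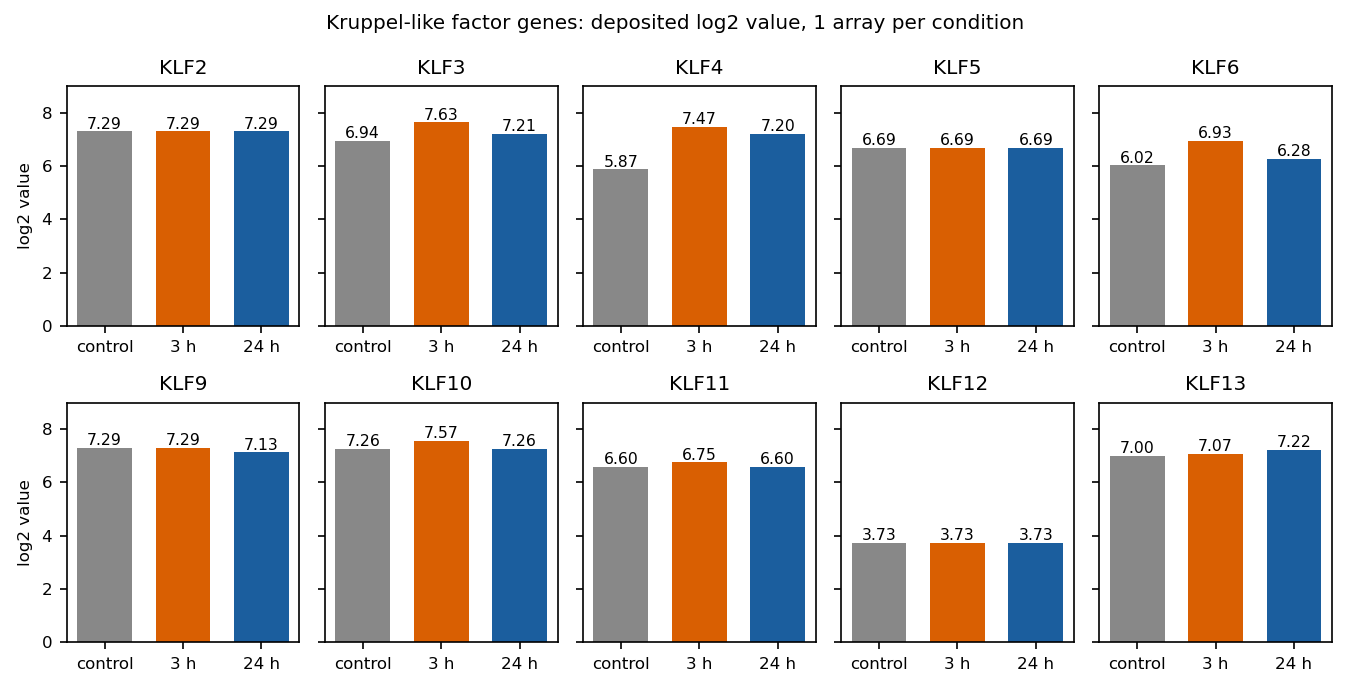
Deposited log2 value of each KLF gene on the control, BP 3 h and BP 24 h arrays, with 1 array per condition and therefore no error bars. KLF4, KLF6, KLF3, KLF10 and KLF11 had their highest value at 3 h, and KLF2, KLF5 and KLF12 had the same value on all 3 arrays.

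Among the other activators, KLF2 and KLF5 showed no difference in this table. KLF2, known for its induction by blood flow in endothelium and for quiescence of T cells, had a value of 7.29 on each of the 3 arrays. KLF5, which promotes growth of epithelial progenitors, had a value of 6.69 on each. KLF4 and KLF5 are often described with opposite effects on epithelial growth, and KLF4 lay above control on both BP arrays while the table shows no difference for KLF5. KLF12, a repressor that recruits CtBP like KLF3, also had an identical value on each array (3.73). It was the 1 member below the median level of 6.16, taken over the highest value of each gene. KLF4 (5.87) and KLF6 (6.02) lay below that level on the control array and passed it through their BP arrays. A total of 3 of 10 members were thus identical on all 3 arrays, against 34.2% of all genes. Above that level, 2 of 9 members (KLF2 and KLF5) and 15.9% of genes were identical.

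At 3 h the SIN3-recruiting members differed from control by less than KLF4, KLF6 and KLF3 did. KLF10, also named TIEG1 as an early gene of TGF-β signaling, had log2 values of 7.26, 7.57 and 7.26 on the control, 3 h and 24 h arrays. It was 1.24-fold of control at 3 h, an increase reached by 6.08% of genes, while its 24 h and control values were equal to 2 decimals. Its close relative KLF11, or TIEG2, had values of 6.60, 6.75 and 6.60, with the 24 h value identical to control. The difference at 3 h was 0.16, within the range of most genes. KLF13, an activator of chemokine expression in T cells, had values of 7.00, 7.07 and 7.22, the 1 member with its highest value at 24 h. Its difference of 0.22 at that time was reached by 12.6% of genes. KLF9, a gene that responds to thyroid hormone and glucocorticoids, had values of 7.29, 7.29 and 7.13 and was the 1 member below control at 24 h, by -0.16.

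In time order the members thus fell into different patterns. KLF4, KLF6, KLF3, KLF10 and KLF11 were highest at 3 h, KLF13 was highest at 24 h, KLF9 was lowest at 24 h, and KLF2, KLF5 and KLF12 had identical values. Of these, KLF4 kept most of its difference from control at 24 h. In the scaling alternatives the 3 h difference of KLF13 ranged from -0.01 to 0.08 and the 24 h difference of KLF10 from -0.03 to 0.00, so no direction is given for them, and the 3 h differences of 0 (KLF2, KLF5, KLF9 and KLF12) ranged from -0.08 to 0.01. The directions of KLF4, KLF6, KLF3, KLF10 and KLF11 at 3 h held under each scaling.

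**Figure D3:**
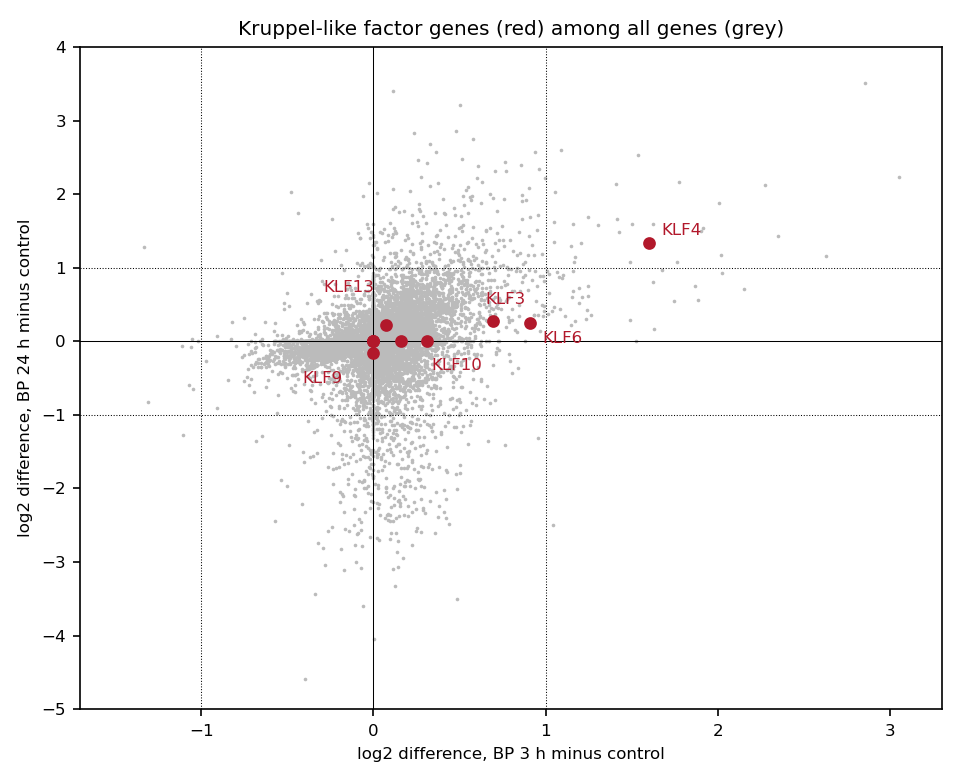
Log2 difference of BP 24 h from control against that of BP 3 h from control for all 19208 genes (grey) and the 10 KLF genes (red), with dotted lines at 2-fold. KLF4 lies past 2-fold on both axes, while KLF6 and KLF3 lie between 0.5 and 1 at 3 h and below 0.3 at 24 h, and both axes share the control array.

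The gene pattern most like that of KLF4 was sought over both differences from control, among 9604 genes above the median level. The nearest was DDIT4, an inhibitor of mTORC1 signaling, at a distance of 0.24 on the log2 scale, whose differences were 1.42 for 3 h and 1.49 for 24 h. MT1G and MT2A, which encode metal-binding metallothioneins, followed at distances of 0.27 and 0.27. The corresponding differences were 1.62 and 1.60 for MT1G and 1.49 and 1.08 for MT2A. Transcripts of metallothioneins are similar in sequence, so values of single metallothionein genes are uncertain. The likeness rests on 3 arrays.

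The KLF family also holds genes outside these 10, and it is related to the SP family, which has zinc fingers of the same type. Of 8 other KLF genes listed, 7 were measured, and 0 were at least 2-fold higher or lower at either time. Their median differences were -0.08 at 3 h and -0.09 at 24 h. Over all genes, 0.344% were at least 2-fold higher and 0.0469% lower at 3 h, and 1.53% and 2.11% at 24 h. A count of 0 in so short a list is thus near the share of all genes. KLF7, a factor of neuronal development, had log2 values of 5.60, 6.04 and 5.24 on the control, 3 h and 24 h arrays, so that it lay above control at the first time and below it at the second. KLF16 had values of 7.59, 7.30 and 7.29, with differences from control of -0.29 and -0.30. Of the other genes, KLF17 had a difference of -0.25 at each time and KLF1, the erythroid factor, differences of -0.28 and -0.09. KLF14, KLF15 and KLF8 differed from control by at most 0.08 in size.

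Of 9 SP genes, 8 were measured, and 0 were past 2-fold. Of all genes, 0.344% were past it upward and 0.0469% downward at 3 h, and 1.53% and 2.11% at 24 h. SP1, the widely expressed activator of GC-rich promoters, had log2 values of 7.92, 7.99 and 7.92 in the same order. The differences for 3 h and 24 h were -0.49 and -0.13 in SP5, 0.27 and 0.02 in SP4, and 0.24 and 0.00 in SP2. At 24 h, 6 of the 8 SP genes had exactly the control value, as did 46.7% of all genes. KLF4 was therefore the 1 gene past 2-fold among the 17 KLF and 8 SP genes measured.

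**Figure D4:**
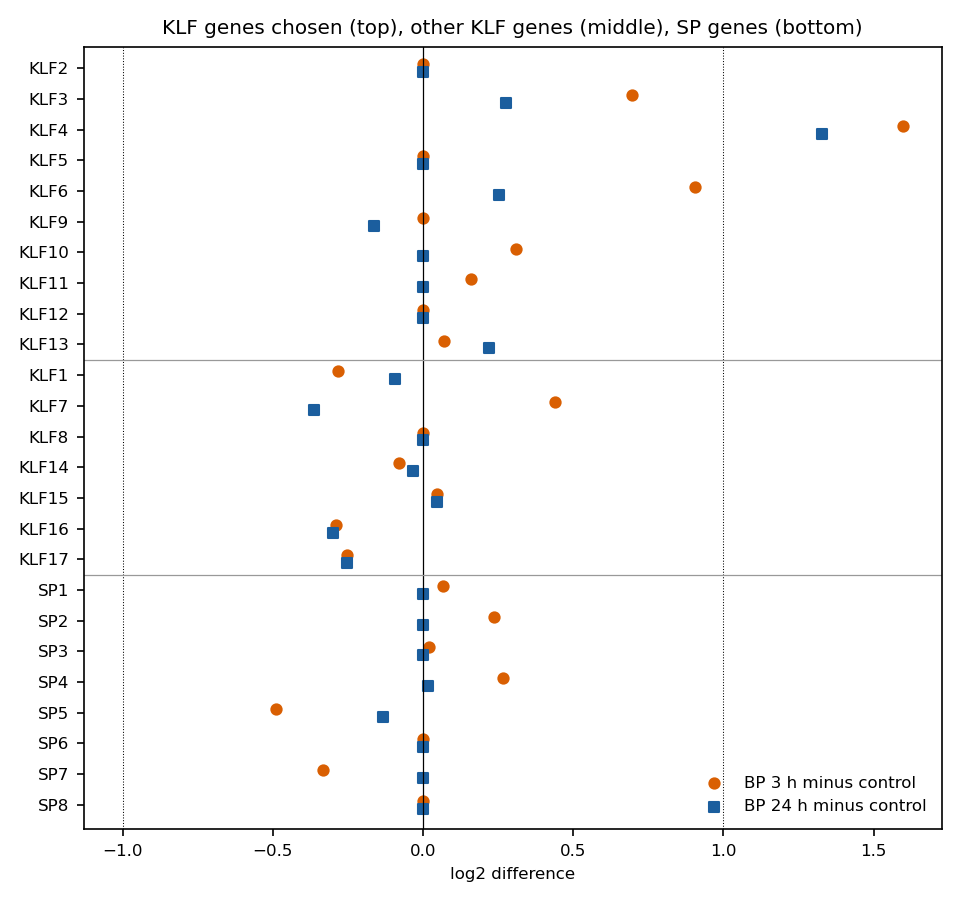
Log2 difference from control at 3 h (circles) and 24 h (squares) for the 10 KLF genes, 7 other KLF genes and 8 SP genes, with dotted lines at 2-fold. KLF4 lies past the line at both times, and the other 24 genes lie inside it.

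Genes that act with, on or upstream of KLF proteins were read from lists. None of 13 genes of corepressors and coactivators was past 2-fold at either time, and the median difference was 0.00 at both. Shares of all genes past 2-fold were 0.344% higher and 0.0469% lower at 3 h, and 1.53% and 2.11% at 24 h. HDAC2, a histone deacetylase of the SIN3 complex, had a difference of -0.50 at 24 h, CTBP1 one of -0.28, the acetyltransferase gene KAT2B one of 0.36 and the coactivator gene EP300 one of 0.22. Of 9 genes for ubiquitin ligases and other regulators of KLF protein level, 0 were past 2-fold, against the same shares of all genes. The median of this list was 0.27 for 3 h and 0.39 for 24 h, against 0.00 over all genes. Of all genes, 41.1% at 3 h and 46.7% at 24 h had exactly the control value, against 0% and 11.1% of this list. The list was chosen with earlier results of these data known, so its median is no test against all genes. The deubiquitinase gene ATXN3 was at 0.28 and 0.83, and the E3 ligase gene SIAH1 at 0.76 at each time, with the same value on both BP arrays. SMURF1, an E3 ligase of the TGF-β pathway, was at 0.37 and 0.48, and FBXO32, an F-box protein of ubiquitin ligases, at 0.48 at each time. USP10, another gene of this list, was at 0.27 and -0.40, below control at the later time. At 24 h, 7 of the 9 genes lay above control, 1 lay below it and 1 was identical to it.

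Of the 13 upstream genes reported here, 0 were past 2-fold at either time, and their median difference was 0.00 for 3 h and 0.19 for 24 h. Among all genes, 0.344% were higher by that much and 0.0469% lower at 3 h, and 1.53% and 2.11% at 24 h. The ERK5 and MEF2 pathway drives KLF2 and KLF4 in endothelium. Differences for 3 h and 24 h were 0.30 and 0.45 in its kinase gene MAP2K5, 0.51 and 0.49 in MEF2D, and 0.07 and 0.52 in MEF2A. MAPK7, the ERK5 gene itself, had differences of -0.03 and 0.00. MEF2C had differences of -0.17 and 0.18, at low log2 values of 3.68, 3.51 and 3.86 on the control, 3 h and 24 h arrays. Differences in RNA thus varied over the genes of this pathway, and its activity was not tested. THRB, a receptor of the thyroid hormone to which KLF9 responds, had differences of 0.06 and -0.50. Each of these genes lay within 2-fold of control.

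Of 24 genes described as KLF targets in other cells, 2 were at least 2-fold higher at 3 h, against 0.344% of all genes, and 0 were lower. They were SMAD7, an inhibitor of TGF-β signaling described as repressed by KLF10, and ATF3, a stress-induced factor described as activated by KLF6. SMAD7 had log2 values of 5.69, 7.36 and 6.66 on the control, 3 h and 24 h arrays, so it was 3.19-fold of control at 3 h and 1.96-fold at 24 h. ATF3 had values of 5.75, 7.16 and 7.41 and was 2.66-fold and 3.17-fold of control. Both were thus above control on both BP arrays. At 3 h KLF10, the described repressor of SMAD7, was also above control, at 1.24-fold.

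At 24 h, 3 of the 24 targets lay above control by 2-fold or more and 4 lay below it, against 1.53% and 2.11% of all genes. CDKN1A, the p21 gene and a described target of KLF4 and KLF6, had log2 values of 7.05, 7.42 and 9.63 on these arrays. It differed by 0.37 at 3 h, where KLF4 and KLF6 had their highest values, and by 2.58 at 24 h. NOS3, an endothelial target of KLF2, was higher by 1.04. CCND1, the cyclin D1 gene that KLF4 represses in other cells, had differences of -0.25 and -1.28. CCNB1, which encodes cyclin B1, was at -2.07 at 24 h, BIRC5, an inhibitor of apoptosis expressed in mitosis, at -1.95, and the monoamine oxidase gene MAOA at -1.53. CCNE1, CDH1, PDGFA and TGFB1 had differences of -0.95, 0.36, 0.28 and -0.22 at 24 h and lay within 2-fold. The median over the 24 genes was 0.00 at both times, with 8 at 3 h and 9 at 24 h identical to control. The list holds activated and repressed targets, and whether KLF proteins acted on these genes in LNCaP cells was not tested. The list was chosen with earlier results of these data known, so its counts at either time are no test against all genes.

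**Figure D5:**
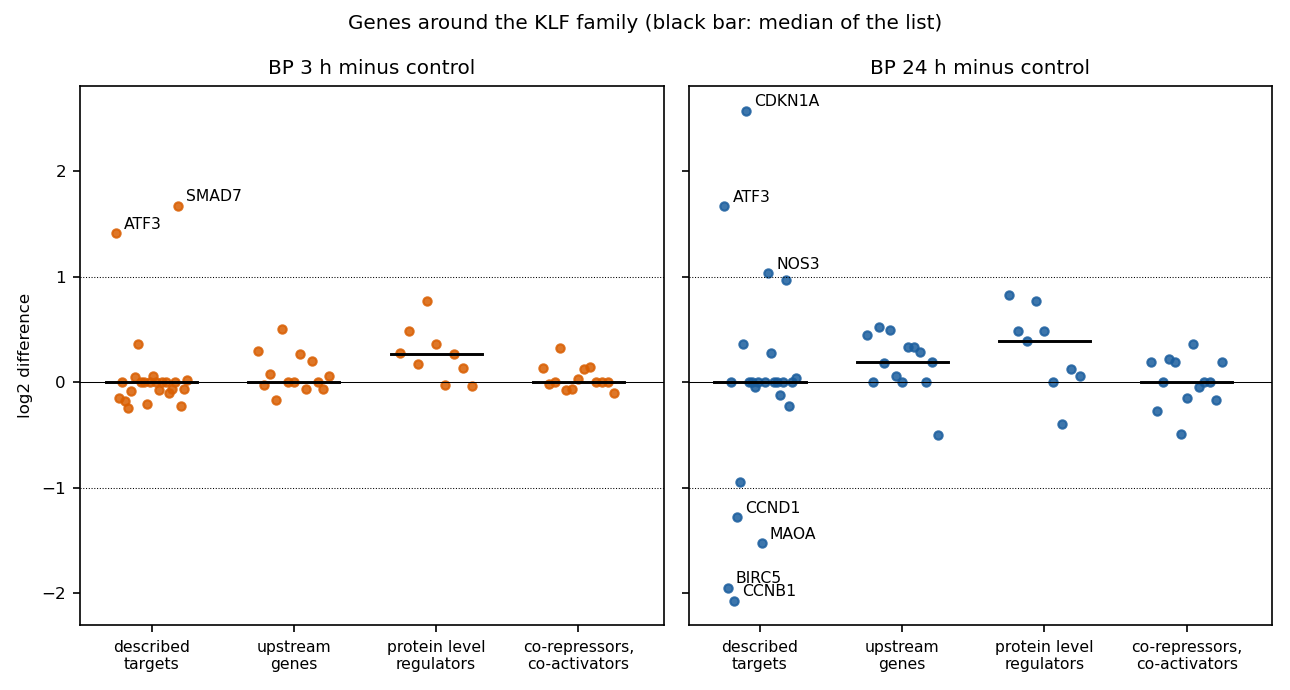
Log2 difference from control at 3 h (left) and 24 h (right) for described KLF targets, upstream genes, regulators of KLF protein level and coregulators, each point a gene and each black bar the median of its list. Genes past 2-fold (dotted lines) are named, and at 3 h they are SMAD7 and ATF3.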

How the data were processed

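The authors deposited log2 values per transcript cluster for 3 Affymetrix Human Gene ST arrays. RMA and Affymetrix Expression Console appear in the submitters' processing notes, with no version, whereas the Methods give MAS5.0 and GeneSpring, with chips scaled to the 50th percentile. Which of these made the values is not settled by the sources used here, and neither is the genome build of the annotation. Comparison tables by the authors, holding log2 ratios and folds, were not used, apart from the gene symbol and cytoband of each cluster.

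Clusters with 1 symbol gave 19208 genes, and for the 627 genes with several clusters the one with the highest mean was kept. Differences of log2 values were taken without further normalization or filter, and 2-fold was the threshold. The 10 KLF genes and all lists were chosen with earlier results of these data known. The genes named are the 10 members, the members of each list past 2-fold and up to 4 others with the largest difference at 24 h, and the 3 genes nearest to a member past 2-fold. Beyond this rule, the rest of the KLF genes were named to account for the family. MAPK7, MEF2C, USP10, KRT8 and KRT18 were named after their values were seen. All 10 symbols were current in RefSeq genes of GRCh38.p14. KLF18, SP9, THRA and FOLH1 were not analysed here, and 1 further gene of the upstream and marker lists is not reported here. As alternatives, arrays were centred on the median or the 75th percentile, or the analysis applied quantile normalization, averaged clusters, kept genes above the median level, or used 1.5-fold and 3-fold thresholds. The calculation was tested on simulated data. Calculations ran in Python 3.11.15 (pandas 2.3.3, numpy 2.4.6), and figures were drawn with matplotlib 3.10.9.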

Additional observations from a re-analysis of the deposited data

Results flagged for a closer look

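KLF7, which is not among the 10 members, lay on opposite sides of control at the different times, with a log2 difference of 0.44 at 3 h and -0.36 at 24 h. The difference between the times was not tested, since each condition had 1 array. The 3 h value of KLF7 lay inside the central range of genes at that time (up to 0.48), and its 24 h value inside that of the later time (down to -0.86).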

How the results depend on the processing

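The number of KLF genes past the threshold changed with the fold required and not with the scaling of the arrays. Averaging clusters could not change that number, since each of the 10 genes had 1 cluster. Keeping genes above the median level could not either, since it removed KLF12 alone, which had identical values. At 1.5-fold, 3 of the 10 genes were higher at 3 h (KLF3, KLF4 and KLF6) in place of 1, and 1 gene, KLF6, was lower at 24 h than at 3 h in place of 0. At 3-fold, 0 were higher at 24 h in place of 1, while KLF4 at 3 h stayed past the threshold. KLF4 ranged from 1.52 to 1.61 at 3 h and from 1.30 to 1.34 at 24 h over the scalings. The median of the 10 members at 3 h was 0.03 with arrays centred on the 75th percentile, 0.05 after quantile normalization, 0.13 with arrays centred on the median and 0.16 over the 9 members above the median level, and at 24 h it lay from -0.03 to 0.00. These shifts were smaller than 0.20, the SD over all genes of the difference between the 3 h and control arrays. The median itself was also smaller than that (0.11 at 3 h and 0.00 at 24 h), so this does not show that it held. KLF4 and KLF6 were among the 9 members above the median level only through their BP arrays. Centring on the 75th percentile moved the median of all genes at 3 h to -0.08. Differences below that size have no settled direction, and 1 array per condition gives no error for any value.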

Other observations

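The patterns nearest to KLF6 and KLF3 were looked up after their values had been seen. For KLF6 the nearest 3 of 9604 genes were those of other zinc finger proteins, ZNF509, ZNF14 and ZNF101, at distances of 0.10, 0.11 and 0.12 on the log2 scale. The share of zinc finger genes among the 9604 was not counted, so no likeness of the family is read from this. ZNF509 had log2 values of 5.66, 6.51 and 6.00 on the control, 3 h and 24 h arrays. ZNF14 had values of 5.36, 6.29 and 5.72, and ZNF101 had values of 6.73, 7.69 and 7.09. Each was highest at 3 h and lay between that value and control at 24 h, which follows from their choice as the genes nearest to KLF6. ZNF509 and ZNF14 lay above the median level of 6.16 only on the 3 h array.

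For KLF3 the nearest were SLC30A10, a metal transporter gene, UVRAG, a gene of autophagy and endosome trafficking, and the metallothionein gene MT1B, at distances of 0.05, 0.07 and 0.08. Differences for 3 h and 24 h were 0.65 and 0.29 in SLC30A10, 0.64 and 0.31 in UVRAG, and 0.68 and 0.35 in MT1B. SLC30A10 lay above the median level of 6.16 only on the 3 h array, and MT1B only on the BP arrays. The comparisons at both times share the control array.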
